A study of Mus musculus with 36 samples.

Results

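The genes that encode the constant parts of the antibody light chains and the surrogate light chain were examined in replication timing (RT) maps of mouse cells. The members were the 6 listed genes Igkc, Iglc1, Iglc2, Iglc3, Igll1 and Vpreb1, of 37252 annotated genes on 19 autosomes and the X chromosome. They were chosen by name and locus, with no threshold on a measured value, although earlier results of these data were known when they were listed. Of the 6, 5 were in the annotation used here, and Iglc1 was placed by sequence as described below.

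RT was measured by Repli-seq. Dividing cells take up BrdU into new DNA, cells from the first and last parts of S phase are collected apart, and the labelled DNA of each is sequenced, so that a region is described by the ratio of early to late reads. The series holds 36 libraries in 7 groups, and domain maps of 2 groups and of 1 further cell type were analysed here. The first map is of CH12 cells, a mouse B lymphoma line (clone F3 in the study's methods), that carry no engineered Rif1 allele and were infected with a lentivirus expressing an shRNA against LacZ, a control for infection. Per the labels these cells were stimulated with IL4, CD40 and TGF beta. The second is of wild-type (WT) primary B cells, which the study's methods describe as activated splenic B cells of Rif1+/+ mice on a C57BL/6 background, with male and female mice used alike and no age given in the sources used here. Each of these maps was made from 4 libraries, an early and a late fraction with 2 replicate numbers each. The third map is named for WT mouse embryonic fibroblasts (MEFs), is tied by the labels to no sample, and was used as the authors' map of a cell that makes no antibody. The study's list of data sets gives MEF Repli-seq as published data.

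Each map cuts the genome into domains of 3 kinds, replicating early (E), in between (middle, M) or late (L). There is 1 map per condition, and the authors merged the replicates before calling states. Differences between maps therefore have no replicate error and were not tested. Per the study, the states of each B cell map were called from the RT values of that map. An earlier or later state below is thus a difference in the kind of domain, not in a measured ratio. Whether the limits between states were alike in the maps was not tested. Intervals given below are 95% Wilson intervals that cover counting only, and neighbouring segments or bins of 1 domain are not independent. The cell labels could not be checked against marker genes, since the maps hold no expression.

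An antibody is built from heavy chains and light chains, and a mouse B cell makes its light chain from either the kappa locus (Igk) or the lambda locus (Igl). In developing B cells the RAG recombinase joins a variable (V) segment to a joining (J) segment at recombination signal sequences, and the joined exon is then spliced to a constant (C) exon. Igkc is the kappa constant gene, and Iglc1, Iglc2 and Iglc3 are lambda constant genes. Before a light chain exists, Igll1 (lambda 5) and Vpreb1 form a surrogate light chain that pairs with the new heavy chain in the pre-B cell receptor. CH12 is a clonal line and splenic B cells are a mixture of clones, so the order of segments in these cells can differ from the reference genome to which the reads were aligned. The effect of rearrangement on the states was not tested.

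The Igk locus lies on chromosome 6 of mm9 and spans 3171 kb, from Igkv2-137 at its distal V end to Igkc. It held 106 annotated segments, with 100 V, 5 J and 1 C. Of the V segments, 38 lay on the plus strand, as Igkc does, and 62 on the minus strand. Plus-strand segments join to a J segment by deleting the DNA between them and minus-strand segments by inverting it. As counted here, the Igl locus on chromosome 16 was much smaller, at 199.1 kb, with 3 V and 3 C segments, all on the minus strand. The annotation used named no lambda J segment, so none was counted. A further match to the constant exon, at the place of Iglc4 in the RefSeq gene order, lay within the locus and was not counted.

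The signals that RAG reads are shown for a few segments. The kappa V segments were taken from the ends of the V array and from places where the state course described below turns, and a kappa J and a lambda V segment stand beside them for the other kind of signal. Each signal is written from the heptamer outwards, away from its segment, with the heptamer and the nonamer in capitals and the spacer between them in lower case. Coordinates are mm9.
Igkv2-137, the most distal V segment, chr6:67506211-67506238, plus strand: CACAGTGatacagccctgaACAAAAACC
Igkv4-68, the last V segment of the longest E run in CH12 cells, chr6:69254800-69254827, minus strand: CACAGTGatacagactggaACAAAAACC
Igkv1-35, the first V segment of an E run in primary B cells, chr6:69960915-69960942, minus strand: CACAGTGatatagacactaAAAAAAAAA
Igkv3-1, the V segment nearest to the J segments, chr6:70654172-70654199, plus strand: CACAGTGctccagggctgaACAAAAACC
Igkj1, the first J segment, chr6:70672517-70672555, minus strand: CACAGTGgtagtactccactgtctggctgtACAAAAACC
Iglv1, a lambda V segment, chr16:19085071-19085109, minus strand: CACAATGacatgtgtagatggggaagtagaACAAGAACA

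The kappa V signals shown have a spacer of 12 bases and that of Igkj1 has a spacer of 23 bases, the unlike pair that RAG joins. The search allowed only spacers at or next to a length set in advance. That length was 12 bases for kappa V segments and 23 for kappa J and lambda V segments. The kind of spacer is therefore background and not a result. In the lambda locus the V segments carry the longer spacer, which is how Iglv1 was searched and is shown. The exact heptamer CACAGTG stood in 84 of the 100 windows at kappa V segments and the exact nonamer ACAAAAACC in 34. Each was found at 3 of 5 kappa J segments and at 0 of 3 lambda V segments. Over all windows of the same length, 65 bases, tiled across both strands of the locus, 0.568% held the heptamer and 0.191% the nonamer.

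The constant exons show how closely the lambda members and Igll1 resemble each other. The first 90 bases of the exon are given for each, in the direction of transcription, with bases that differ from Iglc2 in capitals.
Iglc2, chr16:19198854-19198943, minus strand: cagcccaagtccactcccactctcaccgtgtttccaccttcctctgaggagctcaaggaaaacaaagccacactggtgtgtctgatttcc
Iglc3, chr16:19065683-19065772, minus strand: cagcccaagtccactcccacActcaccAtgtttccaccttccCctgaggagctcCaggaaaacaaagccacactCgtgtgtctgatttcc
Iglc1, chr16:19062073-19062162, minus strand: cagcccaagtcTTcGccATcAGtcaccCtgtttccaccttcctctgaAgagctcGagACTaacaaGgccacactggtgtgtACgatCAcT
Igll1, chr16:16861136-16861225, minus strand: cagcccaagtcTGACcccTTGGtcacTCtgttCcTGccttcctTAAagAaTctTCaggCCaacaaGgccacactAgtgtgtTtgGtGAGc

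In this stretch Iglc3 differed from Iglc2 at 5 bases, Iglc1 at 19 and Igll1 at 29. Over the whole exon, Iglc3 and Iglc2 were 96.5% identical across 312 aligned bases. The Igll1 exon was 79.0% identical to Iglc1, 71.4% to Iglc3 and 70.5% to Iglc2. Iglc1 was taken to be the match to the Iglc3 exon at chr16:19061851-19062162, because it is the copy that lies where the RefSeq gene order puts Iglc1. The authors kept unique alignments, so reads that fit 2 such copies equally well were dropped.

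The constant genes and the surrogate genes fell into different patterns. Igkc, Iglc1, Iglc2 and Iglc3 were M in CH12 cells, E in primary B cells and M in MEFs. Igll1 and Vpreb1 were E in all 3 maps. So 2 of the 6 genes were E in CH12 cells, 6 of 6 in primary B cells and 2 of 6 in MEFs. Among 22350 protein-coding gene starts, 50.6% were E in CH12 cells, 58.0% in primary B cells and 58.6% in MEFs. The pattern of the constant genes was held by 760 protein-coding genes, or 3.40%, and that of the surrogate genes by 9804, or 43.9%. Of the 6088 protein-coding starts that were M in CH12 cells, 33.2% were E in primary B cells. The 3 lambda constant genes share 1 domain in each map, as Igll1 and Vpreb1 do, so the 6 genes give 3 separate positions.

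Igkc, at chr6:70676429-70676751 on the plus strand, lay close to a domain edge in both B cell maps. In CH12 cells it was in an M domain of 840 kb, and its start was 43.6 kb from the E domain that followed. In primary B cells it was inside that E domain, which was 2460 kb long, 16.4 kb from its edge. The edge had thus moved by 60 kb between the maps, or 3 bins of 20 kb, which is less than the 300 kb span over which the authors smoothed the RT values. In MEFs Igkc was in an M domain of 1000 kb, and the E domain began 780 kb farther away than in CH12 cells. The E to M difference of Igkc between the B cell maps is therefore a small shift of 1 edge.

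The lambda constant genes lay past the end of a long E domain on chromosome 16 in CH12 cells and MEFs, and inside it in primary B cells. Iglc1 (chr16:19061851-19062162), Iglc3 (chr16:19065327-19067266) and Iglc2 (chr16:19198494-19200444) were all in the same M domain of 940 kb in CH12 cells. Their starts were 22.2, 27.3 and 160.4 kb from the E domain below them. In primary B cells that E domain ran on by 420 kb, took in all 3 genes and left them 397.8, 392.7 and 259.6 kb from its edge. In MEFs the E domain stopped 60 kb short of its CH12 limit, and the genes lay in an M domain of 320 kb with an L domain beyond it. The shift in primary B cells is longer than the smoothing span, unlike that at Igkc. The edge it reaches in primary B cells is that of a short M stretch. That stretch began at chr16:19460001, and bins were E again from chr16:19600001. It is shorter than the smoothing span.

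Igll1 (chr16:16860764-16864078) and Vpreb1 (chr16:16868495-16870936) are neighbours on the minus strand, with starts 6.858 kb apart. They sat at the other end of the same E domain, which was 2240 kb long in CH12 cells, 2680 kb in primary B cells and 2160 kb in MEFs. The start of Igll1 was 64.1, 84.1 and 44.1 kb from its lower edge in these maps, and that of Vpreb1 was 70.9, 90.9 and 50.9 kb. The lower edge thus stayed within 40 kb across the 3 maps, whereas the upper edge, beside the lambda genes, differed by up to 480 kb. In primary B cells 1 E domain held the surrogate pair and the whole lambda locus, 2191 kb apart. Vpreb2, a further surrogate gene, lay in the middle of this domain, and Vpreb3, on chromosome 10, was also in an E domain in all 3 maps.

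**Figure D1:**
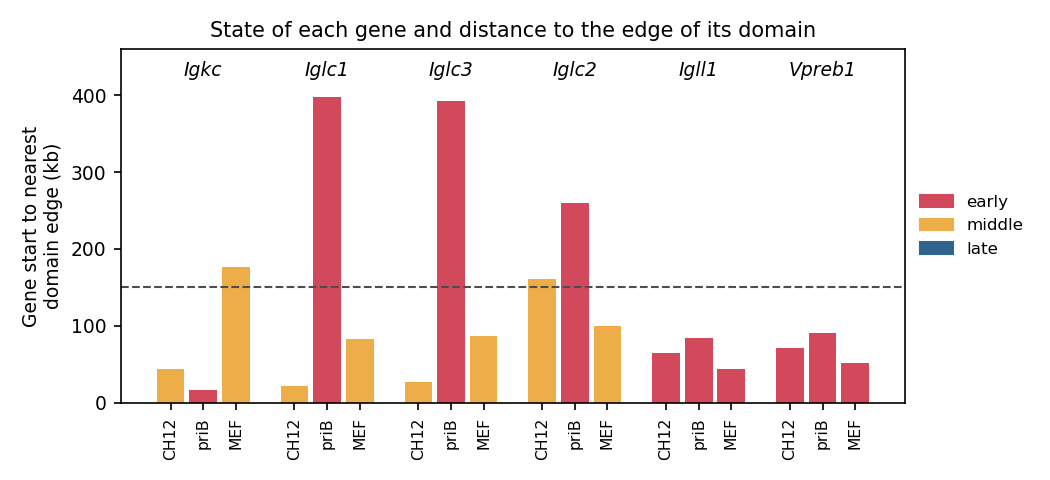
Bars give the distance in kb from the start of each gene to the nearest edge of its domain in each map (CH12, CH12 shLacZ; priB, WT primary B; MEF, MEF WT), coloured by state. The dashed line marks 150 kb; Igkc in primary B cells (16.4 kb) and Iglc1 in CH12 cells (22.2 kb) stand nearest to an edge, and no gene is late.

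**Figure D2:**
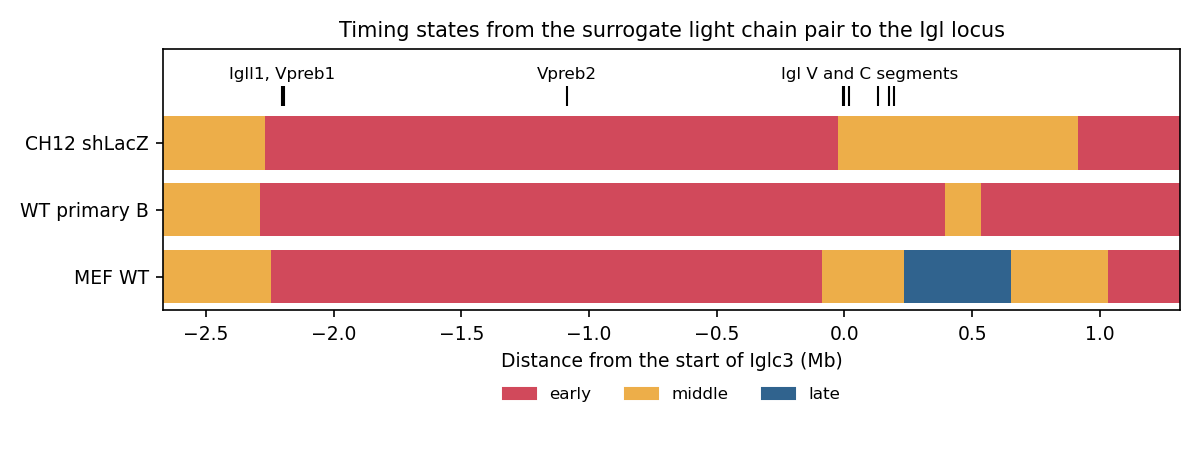
States in 20 kb bins of chromosome 16 against the distance in Mb from the start of Iglc3, with 1 row per map and ticks for gene starts. The E domain reaches past the Igl segments in primary B cells, and ends before them in CH12 cells and MEFs.

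Along the kappa V segments more of the locus was E in CH12 cells (38 of 100) than in primary B cells (6 of 100), the reverse of the constant genes. The counts that follow also take in the J segments and Igkc. In CH12 cells 38 of 106 segments (35.8%, 27.4 to 45.3) were E, 67 were M and 1 was L. In primary B cells 12 (11.3%, 6.6 to 18.8) were E, 94 were M and none was L (0.0%, 0.0 to 3.5). All 12 lay within 150 kb of a domain edge. For 6 of them this follows from the length of their domain, 160 kb. In MEFs none was E, 14 were M and 92 (86.8%, 79.0 to 92.0) were L. The kappa locus was therefore M or E in nearly all of its length in both B cell maps and L in most of it in fibroblasts. Of the protein-coding starts, 11.9% were L in MEFs, but such starts are sparse in L domains. By 20 kb bins, 93.1% of the locus was L in MEFs, against 30.6% of the genome. The E share of bins was 40.3% in the locus against 22.7% in the genome in CH12 cells. In primary B cells it was 5.66% against 28.6%.

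In CH12 cells the course along the locus ran through 8 domains. The most distal segment, Igkv2-137, was L, at the end of a domain of 180 kb. An M domain of 700 kb followed with 21 segments, from Igkv1-135 to Igkv1-110. The first E domain, of 180 kb, held 3 segments from Igkv2-109 to Igkv15-103, and an M domain of 200 kb then held 4, from Igkv14-100 to Igkv10-96. The longest E domain, of 680 kb, held 21 segments from Igkv10-95 to Igkv4-68. After an M domain of 160 kb with 5 segments, from Igkv4-63 to Igkv4-58, the third E domain, of 420 kb, held 14 segments from Igkv4-57-1 to Igkv5-39. The last domain, M and 840 kb long, held the remaining 37 segments, from Igkv12-38 through the J segments to Igkc. The E domains lay in the middle of the locus, and the J and C segments were outside them.

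In primary B cells the same stretch held 4 domains. A single M domain of 2780 kb covered the 72 segments from Igkv2-137 to Igkv18-36 and stood at percentile 99.3 of the 1337 M domains of that map, whose median length was 440 kb. A short E domain of 160 kb then held 6 segments from Igkv1-35 to Igkv8-28, at a place that was M in CH12 cells. An M domain of 540 kb with 22 segments, from Igkv8-27 to Igkv3-1, followed. The long E domain that holds the 5 J segments and Igkc began between Igkv3-1 and Igkj1, whose starts are 18.98 kb apart. All 5 J segments and Igkc were E in this map, against 6 of 100 V segments. The J segments and Igkc lie in 1 bin of 20 kb and so share 1 state call. The lower limit of their domain is 1 bin edge after smoothing, so its position between the V and J segments is no finer than the bins.

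In MEFs Igkv2-137 was M. A single L domain of 2960 kb covered the next 92 segments, from Igkv1-135 to Igkv3-12. The 13 segments from Igkv3-10 to Igkc lay in the M domain that holds the constant gene.

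**Figure D3:**
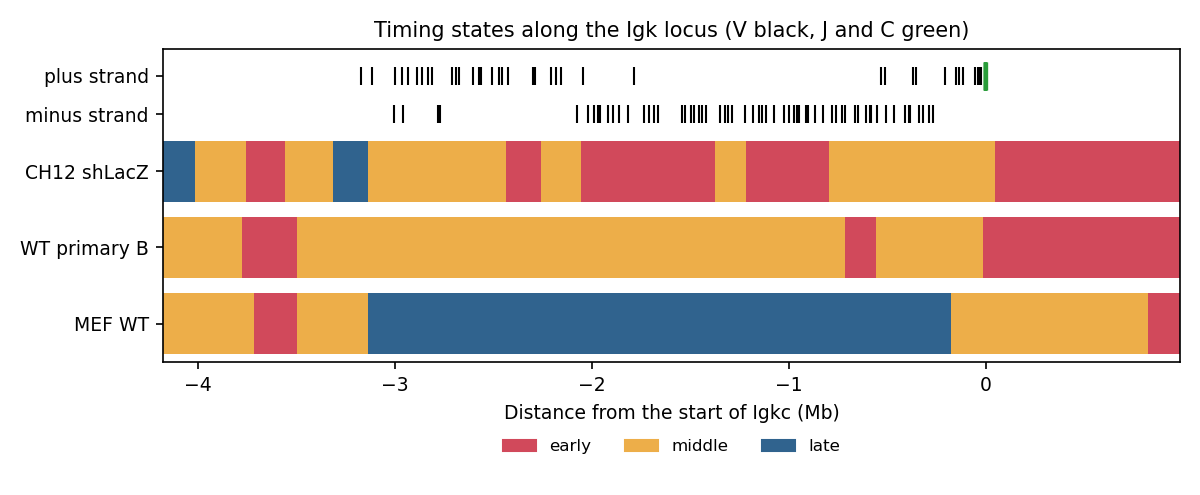
States in 20 kb bins of the Igk locus and its flanks against the distance in Mb from the start of Igkc, with 1 row per map and ticks for the starts of V segments (black) and of J and C segments (green) by strand. The 3 E domains within the locus in CH12 cells lie where primary B cells are M and MEFs are L.

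Bin by bin, the CH12 and primary B maps held the same state in 84 of the 159 bins of the locus (52.8%, 45.1 to 60.4), against 76.1% of all bins in the genome. In 64 bins (40.3%) primary B cells were in the later state, and in 11 (6.92%) in the earlier state. Over the genome the lean was the opposite, with 3.62% of bins later and 20.3% earlier in primary B cells. Among protein-coding gene starts 2.75% were later and 18.8% earlier. All 64 bins were E in CH12 cells and M in primary B cells, and they formed 3 runs of 180, 680 and 420 kb. Of the 305 runs of that kind in the genome, whose median was 100 kb, these ranked 104th, 7th and 30th by length. In the 1 Mb on either side of the locus no bin was later in primary B cells, and 21 of 100 were earlier. With MEFs, the CH12 map shared the state of 9 bins (5.66%) and the primary B map that of 10 (6.29%), against 63.5% and 68.6% over the genome.

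The E runs of CH12 cells fell mostly on minus-strand V segments. Of 62 such segments 33 (53.2%, 41.0 to 65.1) were E in CH12 cells, against 5 of 38 on the plus strand (13.2%, 5.8 to 27.3). The strands are grouped along the locus, with most plus-strand segments at its ends, so strand and position cannot be told apart. The largest family, Igkv4, had 26 members, all on the minus strand. Of these 21 were E in CH12 cells, 26 were M in primary B cells and 26 were L in MEFs. Of Igkv12, 5 of 7 were E in CH12 cells, and of Igkv5, 4 of 5. The E members of these families lay in the E domains of 680 and 420 kb. None of the 9 Igkv6, 9 Igkv8 and 8 Igkv3 segments was E in CH12 cells. All of them lay in the same M domain of 840 kb, so they share a single domain call. Family and position therefore cannot be told apart either. Igkv6 and Igkv8 each gave 2 of the 6 V segments that were E in primary B cells. The exact nonamer was present at 20 of 38 V segments that were E in CH12 cells and at 13 of 61 that were M. Igkv4 supplied 18 of those 20, and in the other families it was present at 2 of 17 E segments and 11 of 56 M segments.

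The kappa locus had less GC and less unique sequence than the sampled genome. The median GC content of its 159 bins was 38.6%, against 41.0% over every 250th bin of the genome. Bins that were E in CH12 cells had a median of 37.9% within the locus, below the 39.5% of its M bins. Genome-wide, E bins of CH12 cells had a median of 45.6%, M bins 42.5% and L bins 39.1%. Among 26449 bins elsewhere with a GC content in the middle range of the locus (37.7 to 39.8%), 5.57% were E and 76.7% were L in CH12 cells. Of the 79 locus bins in that range, 35 (44.3%) were E and 0 were L. In primary B cells 6.33% of those 79 bins were E, against 8.93% of the bins elsewhere, and none was L, against 62.0%. In MEFs 93.7% of them were L, against 51.4%.

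As a measure of how much of each bin could be read, the share of its 50-base words that occur at a single place in the genome was counted. The median was 72.1% in the kappa locus and 74.3% in the lambda locus, against 94.7% in the sampled bins and 95.4% in the flanks of Igk. Within Igk it was 74.8% in bins that were E in CH12 cells and 70.9% in those that were M. Per the methods, both B cell maps were made with the same filter on unique alignments, and this was taken to hold for the MEF map. The part of low uniqueness in the states was not tested.

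**Figure D4:**
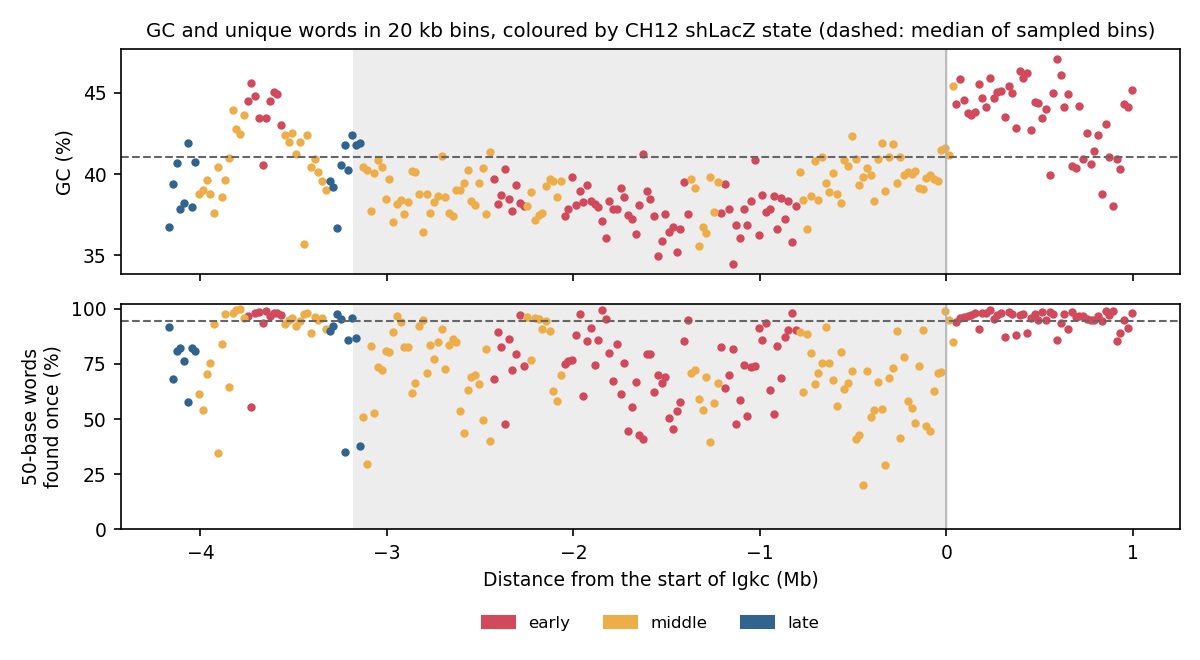
GC content (upper panel, %) and the share of 50-base words at a single place in the genome (lower panel, %) in 20 kb bins against the distance in Mb from the start of Igkc, coloured by CH12 shLacZ state. Grey marks the locus and dashed lines the medians of the sampled genome bins, 41.0% and 94.7%; the E bins within the locus reach at most 41.2% GC, whereas most of those beyond Igkc lie above the line.

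The lambda locus held 1 state throughout in each map. At 199.1 kb it is shorter than the 300 kb smoothing span, so its segments and bins are not separate observations. Its 6 counted segments, which in genome order are Iglc1 (placed by sequence), Iglc3, Iglv1, Iglc2, Iglv3 and Iglv2, were M in CH12 cells, E in primary B cells and M in MEFs. All 11 bins of the locus were likewise earlier in primary B cells than in CH12 cells, against 20.3% of all bins in the genome. Its median GC content was 39.5%. In the 1 Mb on either side, 29 of 100 bins were earlier in primary B cells and none was later. In MEFs all 6 segments were within 150 kb of a domain edge, which the length of their domain, 320 kb, nearly fixes. In CH12 cells 3 of 6 were.

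The genes that flank the loci were read in the same way. Of 15 protein-coding starts within 1 Mb on the distal side of Igk, 6 were L in CH12 cells and none in primary B cells or MEFs. On the constant gene side the nearest was Rpia, a pentose phosphate pathway enzyme gene, E in both B cell maps and M in MEFs. All 16 starts within 1 Mb on that side were E in both B cell maps, and 2 of 16 were E in MEFs. Igkc thus lay beside a stretch that was E in both B cell maps.

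For Igl, the 23 starts below the locus, on the side of the surrogate genes, were all E in both B cell maps and 22 were E in MEFs. The nearest, Gm10088, was M in MEFs. Of the 15 starts above it, 4 were E in CH12 cells, 11 in primary B cells and 2 in MEFs, where 8 were L. The nearest of these, the olfactory receptor gene Olfr164, had the same states as the lambda constant genes. Around Igll1 and Vpreb1 the neighbours Spag6 and Ppm1f were E in all maps. Of the starts beyond the pair, 29 of 29 were E in each map, and on the other side 1 of 10 was E and 9 were M in each.

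The light chain loci were set beside the other antigen receptor loci. In the heavy chain locus Igh, primary B cells held the earlier state at 123 of 142 annotated segments and the later state at none. In Igk 13 of 106 were earlier and 38 later, and in Igl 6 of 6 were earlier. Over all protein-coding starts 18.8% were earlier and 2.75% later in primary B cells. E segments made up 2.82% of Igh in CH12 cells and 30.3% in primary B cells, so that the difference ran the other way from that in Igk. Among the T cell receptor loci, 81 of 172 segments of Tra and Trd were earlier in primary B cells and 11 were later. In Trb 18 of 41 were earlier and none was later, and in Trg none of 14 differed. All 14 Trg segments were M in both B cell maps and 10 of them were L in MEFs. A course that is not L in B cells and mostly L in MEFs was thus not particular to Igk. Trb was L at all 41 segments in CH12 cells and MEFs, whereas Igk had 1 L segment of 106 in CH12 cells and 92 in MEFs. These are counts in single maps, and no difference between loci was tested.

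**Figure D5:**
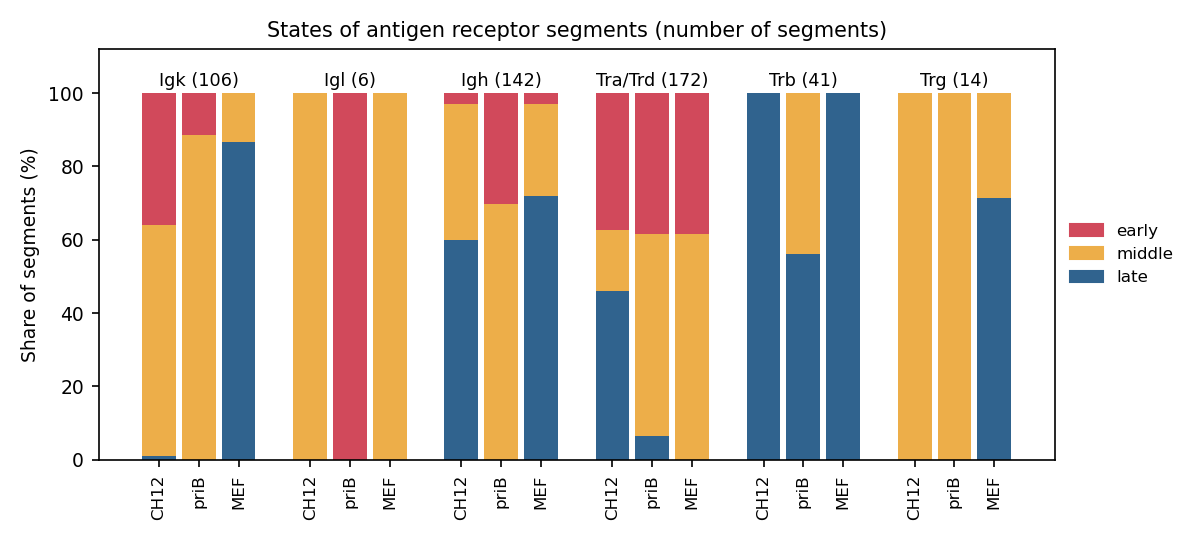
Share of segments (%) in each state for the 6 antigen receptor loci in each map (CH12, CH12 shLacZ; priB, WT primary B; MEF, MEF WT), with the number of segments in parentheses. The E share of Igk is higher in CH12 (35.8%) than in priB (11.3%), whereas in Igh and Igl it is higher in priB.

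A list of 26 genes that assemble, signal from or regulate the light chain was read in the same maps. In CH12 cells 17 were E, in primary B cells 22 and in MEFs 17, beside 50.6%, 58.0% and 58.6% of all protein-coding starts. Between the B cell maps 19 kept 1 state, 6 were earlier in primary B cells and 1 was later, beside 18.8% earlier and 2.75% later over all protein-coding starts. The difference of the list from this background was not tested, and nothing particular to the list is read from its counts. Of 10 genes of recombination and joining, Rag1 and Rag2, the recombinase that cuts at the signals shown above, were L in CH12 cells and E in the other maps. Xrcc5, which encodes Ku80 of the end-joining complex, was E in CH12 cells and MEFs and M in primary B cells, the direction seen in the kappa V segments. Of 6 receptor signalling genes, Btk, a kinase, and Plcg2, a phospholipase, were M in CH12 cells and E in primary B cells. In MEFs Btk was M and Plcg2 was E. Of 10 transcription factors, Ebf1 and Foxo1, both needed early in B cell development, were also M in CH12 cells and E in primary B cells. Both were E in MEFs too, so their early state was not particular to primary B cells. The other 8 factors, Pax5, Irf4 and Spi1 among them, were E in both B cell maps. In MEFs 8 of all 10 factors were E, with Irf4 and Spi1 among them, and Pax5 was M.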

How the data were processed

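Domain maps of Repli-seq data were analysed for CH12 shLacZ cells, WT primary B cells and MEF WT cells. Per the methods and the submitters' processing notes, reads were trimmed (Trim Galore 0.6.5) and aligned to mm9 (BWA 0.7.17), unique alignments were kept (SAMtools 1.9), replicates were merged and duplicates removed. Log2 ratios of early to late reads in 20 kb windows were smoothed by loess over 300 kb and cut into 3 states by a hidden Markov model. The deposited values are a score, the number of a state, which has no order of its own, with the limits of each domain. The methods' steps are stated for all RT tracks and were taken to hold for the MEF map. The maps used here hold states without ratios or read counts, so the depth behind each state is unknown. The state whose domains border both other states was named M, and of the other 2, E is the one with more protein-coding starts per Mb.

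Here each gene was given the state of the domain over its start (GENCODE M1, mm9), computed in Python 3.11.15 with pandas 2.3.3 and numpy 2.4.6. Lookups were tested on simulated data. Intervals came from scipy 1.17.1. Iglc1 was placed with blastn 2.17.0 (E value limit 1e-05). Words of 50 bases were counted on both strands of the whole genome. The named genes are the 6 members, Vpreb2, Vpreb3, the first and last segment of each run of 1 state, the nearest flanking genes (1 of which is not reported here) and, from the list of 26, those whose state differed between the B cell maps. In addition the 3 list genes named as unchanged were singled out after their values were seen. The members and lists were chosen with earlier results of these data known. The other 5 groups of libraries were not analysed here, and protein sequences were not used here.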

Additional observations from a re-analysis of the deposited data

How the results depend on the processing

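No paired analysis was possible because the authors merged the replicates before calling states, and no test was made. For the same reason no replicate could be left out. Of 56 alternative values, 37 stayed within the counting interval of the main value (within 1.5 times for counts of members) and 19 moved outside it. The states of the 6 members were the same at the gene's midpoint, at its 3′ end and by most of its bases. Without segments within 150 kb of a domain edge, the E share of Igk segments fell from 11.3% to 0% in primary B cells. A domain of 160 kb fixes this for 6 of the 12 E segments of that map. In CH12 cells the E share was then 30.6%. The L share became 0% in CH12 cells, which a domain of 180 kb fixes for the 1 L segment. In MEFs the L share became 92.4%. By 20 kb bins the E share in primary B cells was 5.66% and the L share in MEFs 93.1%. With 1 Mb added on each side, the agreement over Igk became 62.9% between the B cell maps, 19.3% between CH12 cells and MEFs and 25.5% between primary B cells and MEFs. For Igl these values were 64.0%, 73.0% and 49.5%, from 0%, 100% and 0%. Without bins within 100 kb of an edge, agreement over Igk with MEFs was 1.22% for CH12 cells and 0% for primary B cells. Over all annotated genes the E share of starts was 44.8% in CH12 cells, 51.7% in primary B cells and 51.8% in MEFs, and over autosomes 51.8%, 59.2% and 61.1%. The first 2 choices remove segments or weight them by length. Adding 1 Mb on each side brings in the flanks, where agreement between the B cell maps was 79.0% for Igk and 71.0% for Igl. The cause of the other changes was not tested. Adding the 2 V genes of the locus with other names, Gm16637 and Gm16774, was chosen after seeing the data and moved no share outside its interval. For Igl in MEFs no segment was left away from an edge, so that alternative has no value.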
